A study of Mus musculus with 6 samples.

Results

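The transcription factors Lhx1, Lhx5, En1, Pax2, Evx1, Evx2, Vsx1, Gata2 and Gata3 mark classes of spinal interneurons, and their transcripts were examined in motor neurons (MNs) made from mouse embryonic stem cells (mESCs). The 9 genes were taken by symbol from the 34418 symbols of the deposited table, and each had 1 entry. Hb9 control cells are labelled wildtype, which the study's methods give as SMN2+/+;mSmn+/+, and A2 SMA cells are SMN2+/+;mSmn-/-, a genotype that lacks mouse Smn1 and keeps the human SMN2 transgene. Both lines are on the FVB/N background and carry eGFP driven by the Hb9 (Mnx1) promoter. Embryoid bodies of both lines were treated for 5 days with 1 µM retinoic acid (RA) and 1 µM Smoothened agonist, which stands in for Sonic hedgehog, and GFP-positive cells were collected by FACS. RNA from 3 samples per genotype was sequenced. Each genotype is 1 cell line, so genotype and line cannot be told apart. The sorted cells are called Hb9 MNs and A2 MNs below.

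The table gives 1 value per genotype in FPKM, which scales fragment counts by exon length and by the fragments mapped in all. The authors combined the 3 samples of a genotype into that value, so no SD and no test between genotypes could be computed here, and each difference is a description without a replicate check. The table gives no read counts, so the number of reads behind each gene's value is unknown. Levels in FPKM are per length and can be compared between genes. Differences are given as the log2 ratio of FPKM in A2 over Hb9 MNs, with no pseudocount added. Where 2 FPKM values are given together, the first is that of Hb9 MNs.

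In the embryonic spinal cord, progenitors at successive positions from ventral to dorsal give rise to MNs and to cardinal interneuron classes, and each class is known by the transcription factors it turns on as it leaves the cell cycle. V0, V1, V2 and V3 cells are the ventral classes and dI1 to dI6 cells the dorsal ones. Evx1 and Evx2 specify excitatory V0 cells, En1 marks inhibitory V1 cells, Vsx1 appears in newly formed V2 cells, and Gata2 and Gata3 mark the inhibitory V2b branch. Lhx1, Lhx5 and Pax2 are shared by V0 and V1 cells and by inhibitory dorsal classes such as dI4 and dI6. Several of these genes also work outside interneurons, for example Lhx1 in MNs that project to dorsal limb muscle.

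All 9 factors were lower in A2 MNs, with log2 ratios from -4.93 for Lhx1 to -1.60 for Evx2 and a median of -3.38. Without a pseudocount, Lhx1, Lhx5 and Vsx1 had the lowest ratios. With 1 FPKM added to both values Lhx1 (-3.71) and Lhx5 (-2.33) were still the lowest, followed by Pax2 (-2.13) and Gata2 (-2.12), and Vsx1 was at -0.83. Of the 21552 symbols above 0 FPKM in both genotypes, 64.9% were lower in A2 MNs by any amount. Each factor was lower by at least 2-fold, as were 24.3% of those symbols. A difference of at least 8-fold was found for 5 of the 9 factors (Lhx1, Lhx5, Vsx1, Pax2 and En1) and for 3.92% of those symbols, and with 1 FPKM added it was found for Lhx1 alone of the 9 and for 1.16% of the symbols. The 15775 symbols that reached 1 FPKM in at least 1 genotype had a median log2 ratio of -0.29 (quartiles -0.88 and 0.19), and of them 22.2% were lower by at least 2-fold and 6.78% higher. Relative to this median gene, 16.5% were lower and 10.3% higher by at least 2-fold, and the factors then ran from -4.64 for Lhx1 to -1.31 for Evx2.

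**Figure D1:**
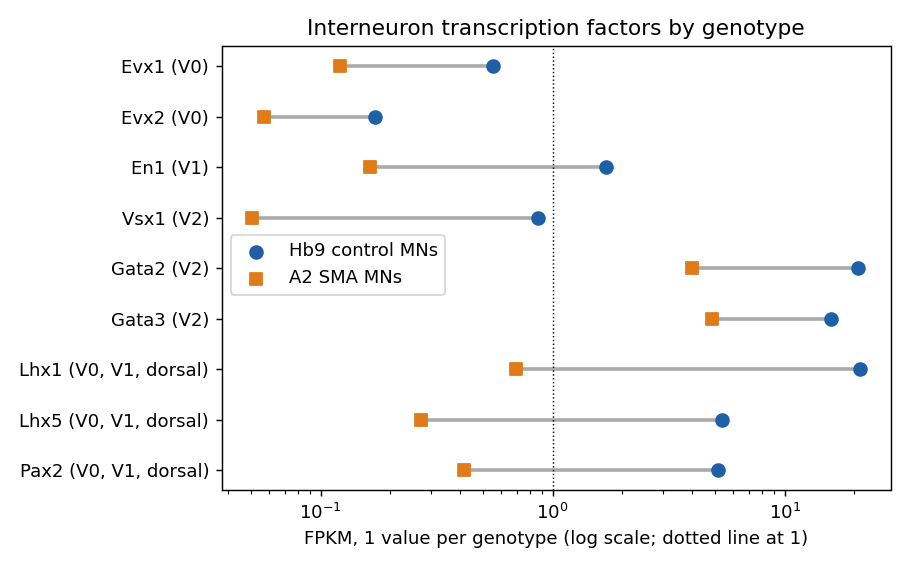
FPKM of the 9 interneuron factors on a log axis, with 1 point per genotype (circles, Hb9 MNs; squares, A2 MNs), no error bars because the table holds 1 value per genotype, and a dotted line at 1 FPKM. Every square lies left of its circle, and only Gata2 and Gata3 remain above 1 FPKM in A2 MNs.

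Lhx1, a LIM homeodomain factor, was the most abundant of the 9 in Hb9 MNs. Its locus is chromosome 11, 84331479 to 84349333, in NCBI m37, the build of all positions taken from the table. Lhx1 was at 21.2 FPKM in Hb9 MNs and 0.696 FPKM in A2 MNs, a 30.4-fold difference and a log2 ratio of -4.93. Only 0.590% of the 15775 genes had a lower log2 ratio than Lhx1. Its close relative Lhx5, on chromosome 5 from 120881779 to 120891464, was at 5.39 FPKM in Hb9 MNs and 0.272 FPKM in A2 MNs, a log2 ratio of -4.31. Lhx1 exceeded Lhx5 in both genotypes, by 3.93-fold in Hb9 MNs and by 2.56-fold in A2 MNs.

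The start of Lhx1 is shown because its noncoding partner Lhx1os begins in the same stretch. In GENCODE M21 on GRCm38, Lhx1os starts 126 bases upstream of Lhx1 on the opposite strand. The sequence runs from 250 bases before the start of Lhx1 to 50 after it (RefSeq, GRCm38.p6, chr11:84525485-84525784, minus strand), with the 126 bases between the starts in capitals.
Lhx1: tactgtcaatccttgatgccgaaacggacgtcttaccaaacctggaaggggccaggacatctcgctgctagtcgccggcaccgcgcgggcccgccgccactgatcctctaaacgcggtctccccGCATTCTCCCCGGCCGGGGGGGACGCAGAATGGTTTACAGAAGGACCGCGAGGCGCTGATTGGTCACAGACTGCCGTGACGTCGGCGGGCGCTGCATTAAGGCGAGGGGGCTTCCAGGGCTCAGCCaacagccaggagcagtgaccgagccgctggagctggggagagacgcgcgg

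Pax2, a paired-domain factor that acts with Lhx1 and Lhx5 in the GABAergic programme of dorsal neurons, showed the same direction. Pax2 (chromosome 19, 44830539 to 44912758) had 5.19 FPKM in Hb9 MNs and 0.416 FPKM in A2 MNs, a log2 ratio of -3.64. In sum, Lhx1, Lhx5 and Pax2 held 31.8 FPKM in Hb9 MNs and 1.38 FPKM in A2 MNs, a 23.0-fold difference. In bulk RNA from sorted cells, fewer cells of a type and less RNA per cell cannot be told apart.

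En1, the homeodomain factor of V1 cells (chromosome 1 from 122498995 to 122505873), was at 1.70 FPKM in Hb9 MNs and 0.164 FPKM in A2 MNs. Its log2 ratio was -3.38, a 10.4-fold difference, and -1.21 with 1 FPKM added to both values. En1 passed 1 FPKM through Hb9 MNs only, as did Lhx1, Lhx5 and Pax2, and a gene that passes in this way has to differ.

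The V0 factors were the least abundant of the set in Hb9 MNs. Evx1 (chromosome 6 from 52258383 to 52268372) was at 0.554 FPKM in Hb9 MNs and 0.121 FPKM in A2 MNs, a log2 ratio of -2.19. Evx2 (chromosome 2 from 74491049 to 74497918) was at 0.172 FPKM in Hb9 MNs and 0.0570 FPKM in A2 MNs, a log2 ratio of -1.60. The deposited table marks both Evx genes as having too few alignments for Cuffdiff to test, and with 1 FPKM added to both values their log2 ratios were only -0.47 and -0.15. The direction of the V0 factors therefore rests on very low values.

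The V2 factors split by level. Vsx1, a paired-like homeodomain factor on chromosome 2 from 150506435 to 150515096, was at 0.870 FPKM in Hb9 MNs and 0.0507 FPKM in A2 MNs. Its log2 ratio was -4.10, and -0.83 with 1 FPKM added to both values. Gata2, a zinc finger factor on chromosome 6 from 88143885 to 88158642, was at 20.7 FPKM in Hb9 MNs and 3.996 FPKM in A2 MNs, a 5.19-fold difference and a log2 ratio of -2.37. Gata3, on chromosome 2 from 9778705 to 9811661, was at 15.8 FPKM in Hb9 MNs and 4.86 FPKM in A2 MNs, a 3.25-fold difference and a log2 ratio of -1.70. The Gata3 entry also carries the noncoding gene 9230102O04Rik, so its FPKM covers both.

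Of the 9 factors, 8 had a window like that of Lhx1 in the RefSeq table (11 windows in all, 3 of them for Pax2 and 2 for Gata2), and Lhx5 had none. These windows held from 5 to 32 CpG, with a median of 23, where all 32851 windows had a median of 7 (quartiles 3 and 20). The windows of Vsx1, Evx1 and Evx2 and 1 of those of Pax2 did not exceed the upper quartile of all windows.

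Windows were searched on both strands for TAATTA (a homeodomain core), AGATAA (bound by GATA factors), TGGGAA (bound by RBPJ, the effector of Notch), AGGTCA (a nuclear receptor core) and CAGCTG (an E-box, read by proneural bHLH factors). CAGCTG was present for 5 of the 8 genes (En1, Gata2, Gata3, Pax2 and Vsx1) and for 18.3% of all 27025 genes with a window. Pax2 and Gata2, which have more windows than the others, did not hold it in all of them. As a share of windows it was in 16.3% of all 32851. TGGGAA was present for Evx1 and Pax2 and for 28.3% of all genes, and AGATAA for Evx2 and for 12.7%. TAATTA and AGGTCA were in none of the windows of the 8 genes, and in those of 6.12% and 18.1% of all genes. A match says only that these letters are in the window. The windows of En1 (chr1:120602237-120602536, plus strand), Gata3 (chr2:9878551-9878850, minus strand) and Vsx1 (chr2:150689088-150689387, minus strand) show where CAGCTG, in capitals, lies relative to the start.
En1: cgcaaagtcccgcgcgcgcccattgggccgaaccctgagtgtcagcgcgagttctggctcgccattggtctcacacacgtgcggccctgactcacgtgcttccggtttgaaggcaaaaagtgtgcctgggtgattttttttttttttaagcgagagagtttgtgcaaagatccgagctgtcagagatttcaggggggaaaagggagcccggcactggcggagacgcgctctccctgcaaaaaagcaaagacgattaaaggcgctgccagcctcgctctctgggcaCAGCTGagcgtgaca
Gata3: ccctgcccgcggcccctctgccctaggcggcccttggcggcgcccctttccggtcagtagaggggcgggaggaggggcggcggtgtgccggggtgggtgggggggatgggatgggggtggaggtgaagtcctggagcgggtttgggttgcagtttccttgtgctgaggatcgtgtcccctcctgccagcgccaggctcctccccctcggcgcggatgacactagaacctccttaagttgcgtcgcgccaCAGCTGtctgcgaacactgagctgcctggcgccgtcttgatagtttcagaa
Vsx1: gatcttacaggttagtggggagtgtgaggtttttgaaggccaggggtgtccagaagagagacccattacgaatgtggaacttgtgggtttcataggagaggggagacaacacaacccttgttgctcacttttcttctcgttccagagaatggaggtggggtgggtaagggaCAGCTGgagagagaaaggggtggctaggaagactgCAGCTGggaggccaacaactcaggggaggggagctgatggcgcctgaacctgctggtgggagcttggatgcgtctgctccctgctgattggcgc

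In En1 the match begins at base 36 after the start, in Gata3 it spans the start, and in Vsx1 the 2 matches begin 79 and 44 bases before it. The 5 genes with the match had log2 ratios of -3.38 (En1), -2.37 (Gata2), -1.70 (Gata3), -3.64 (Pax2) and -4.10 (Vsx1), and the 3 without it -4.93 (Lhx1), -2.19 (Evx1) and -1.60 (Evx2).

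The order of the levels differed between the genotypes. Lhx1 was highest in Hb9 MNs, followed by Gata2 and Gata3, whereas Gata3 was highest in A2 MNs, followed by Gata2 and Lhx1. Gata2 and Gata3 together made up 51.0% of the summed FPKM of the 9 factors in Hb9 MNs and 83.3% in A2 MNs. The sum itself was 71.6 FPKM in Hb9 MNs and 10.6 FPKM in A2 MNs, a 6.73-fold difference. Neighbours in these orders cannot be told apart beyond their spread, because the spread over samples is not given.

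**Figure D2:**
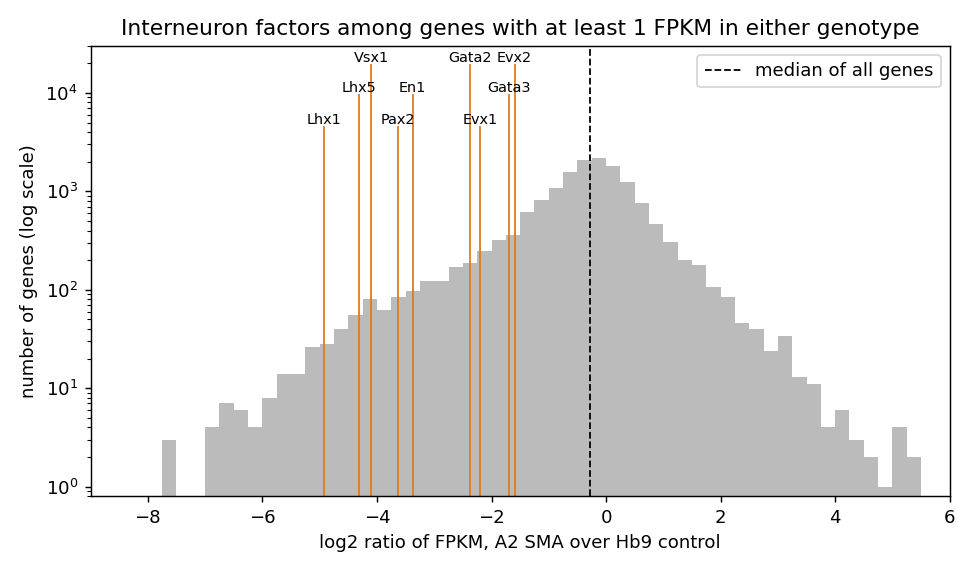
Number of genes (log scale) by log2 ratio of FPKM in A2 over Hb9 MNs, for the 15775 genes that reached 1 FPKM in at least 1 genotype (grey bars), with the median gene at -0.29 (dashed line). Orange lines mark the 9 interneuron factors, of which Evx1, Evx2 and Vsx1 are under 1 FPKM in both genotypes and not among the bars. All 9 lines stand left of the median gene, from -4.93 for Lhx1 to -1.60 for Evx2.

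Genes around the factors were read from the same table to see how far along the chromosome the differences reached. Of the noncoding entries of the same loci, 3 reached 0.5 FPKM, each through Hb9 MNs only, so that their direction was fixed by that choice, and 2 of them stayed under 1 FPKM. Of the others, Gm13256 at Gata3 had a log2 ratio of -1.02, and Gm20395 at Pax2 was higher in A2 MNs, with a log2 ratio of 1.75 at levels of 0.0178 and 0.0598 FPKM. 1500016L03Rik, also named Lhx1os, was at 5.59 FPKM in Hb9 MNs and 0.151 FPKM in A2 MNs, a log2 ratio of -5.21 beside -4.93 for Lhx1, with both starts in the stretch printed above. 5730457N03Rik (Evx1os), which runs antisense to Evx1, was at 0.833 FPKM in Hb9 MNs and 0.0996 FPKM in A2 MNs, a log2 ratio of -3.07. 4930412O13Rik, in the locus of Gata3, was at 0.828 FPKM in Hb9 MNs and 0.0465 FPKM in A2 MNs, a log2 ratio of -4.15. The library kit does not mark strand, so reads of a factor and of an antisense partner cannot be told apart where the 2 overlap.

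The nearest gene with at least 1 FPKM on each side of each factor, a choice made after the values were seen, gave 18 flanking entries at distances from 4.43 to 815 kb. Of these, 16 lay within 2-fold between the genotypes, and the median log2 ratio of the 18 was -0.26. Of all 15775 genes that reached 1 FPKM, 22.2% were lower and 6.78% higher by at least 2-fold, with a median of -0.29. The flanking median was thus close to that of genes at large. Aatf, 4.43 kb from the Lhx1 locus, was at 65.7 FPKM in Hb9 MNs and 51.9 FPKM in A2 MNs, a log2 ratio of -0.34. Taf3, 16.1 kb from the Gata3 locus, had a log2 ratio of 0.17, Sdsl, 16.7 kb from Lhx5, of -0.34, and Acss1, 11.8 kb from Vsx1, of -0.22. The exceptions were the entry of Hoxa9 and 9930038K12Rik, 77.3 kb from Evx1, at -2.02, and Steap3, 330 kb from En1, at 1.30. The Hoxa9 entry reached 1 FPKM through Hb9 MNs only (1.19 and 0.293 FPKM), which fixed its direction. Hoxd13, which adjoins Evx2 at 8.45 kb, was at 0.436 FPKM in Hb9 MNs and 0.816 FPKM in A2 MNs, opposite in direction to Evx2.

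**Figure D3:**
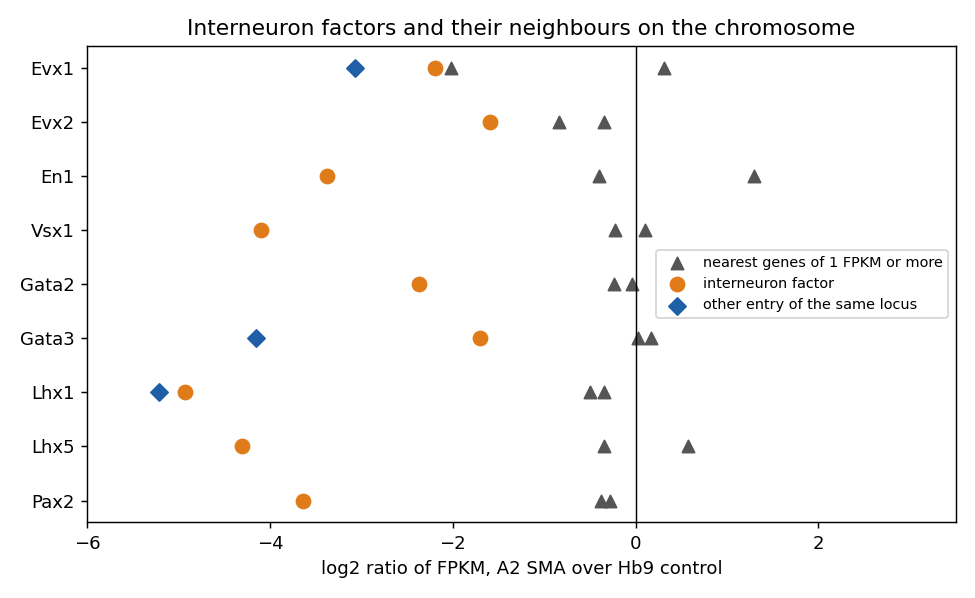
Log2 ratio of FPKM in A2 over Hb9 MNs for each interneuron factor (circles), for noncoding entries of the same locus with at least 0.5 FPKM in either genotype (diamonds) and for the nearest gene of 1 FPKM or more on each side (triangles). The diamonds of Lhx1, Evx1 and Gata3 lie left of their circles, and 16 of the 18 triangles lie between -1 and 1.

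Reads of 50 bases could in principle be split between related factors. In GENCODE M21 none of the 50-base windows of the transcripts of a factor occurred in another of the 9 factors. Windows shared with other genes made up 2.22% for Gata3, 1.46% for Lhx5 and 0.904% for Evx1, and there were none for the other 6 factors.

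Other transcription factors of ventral interneurons were mostly lower as well. Of 15 listed factors, 14 reached 1 FPKM, and 12 of these were lower by at least 2-fold and none higher. Their median log2 ratio was -3.49, and -2.28 over all 15, but only 6 of the 15 reached 1 FPKM in A2 MNs, against 14 in Hb9 MNs. Without the filter, 13 of 15 were lower. The most abundant were Lmo4, a LIM-only cofactor, at 41.8 FPKM in Hb9 MNs and 17.6 FPKM in A2 MNs, and Sox21, a SoxB factor, at 31.8 and 8.91 FPKM. Lhx3, a factor of V2a cells and MNs, was at 27.6 FPKM in Hb9 MNs and 0.348 FPKM in A2 MNs, a log2 ratio of -6.31. Its relative Lhx4 had a log2 ratio of -5.06.

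Factors of single classes were picked from this list after their values were seen. Sox14, of V2a cells, was at 1.28 FPKM in Hb9 MNs and 0.0321 FPKM in A2 MNs, a log2 ratio of -5.32, and Shox2, also of V2a cells, was at 6.50 and 1.49 FPKM, a log2 ratio of -2.13. Tal1 (Scl), which works with Gata2 and Gata3 in V2b cells, was at 8.82 FPKM in Hb9 MNs and 0.157 FPKM in A2 MNs, a log2 ratio of -5.81 that rests on a value near 0 in A2 MNs. Of V1 factors, Sp8 had a log2 ratio of -4.71 and Foxp2 of -1.99, beside -3.38 for En1. Sim1, the V3 factor, had a log2 ratio of -4.73. Foxd3, of V1 and dI2 cells, was not lower, at 2.90 and 3.65 FPKM.

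Dorsal interneuron factors other than Lhx1, Lhx5 and Pax2 were mostly at low levels. Of 21 listed, all in the table, 12 were under 1 FPKM in both genotypes, among them Lbx1, Tlx3, Ptf1a and Atoh1, which define the dorsal classes. Of the 9 above it, 3 were lower by at least 2-fold, 6 lay within 2-fold and none was higher. Their median log2 ratio was -0.76, with 7 lower by any amount, and over all 21 it was -0.075, with 11 lower. Lbx1, the dI4 to dI6 factor, was at 0.677 FPKM in Hb9 MNs and 0.489 FPKM in A2 MNs. Phox2a, also known from hindbrain MNs and noradrenergic neurons, was at 64.4 FPKM in Hb9 MNs and 3.94 FPKM in A2 MNs, and Bhlhe22 at 10.6 and 0.636 FPKM. Lmx1b, at 12.97 and 12.3 FPKM, and Gbx2, at 12.9 and 6.82 FPKM, lay within 2-fold.

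**Figure D4:**
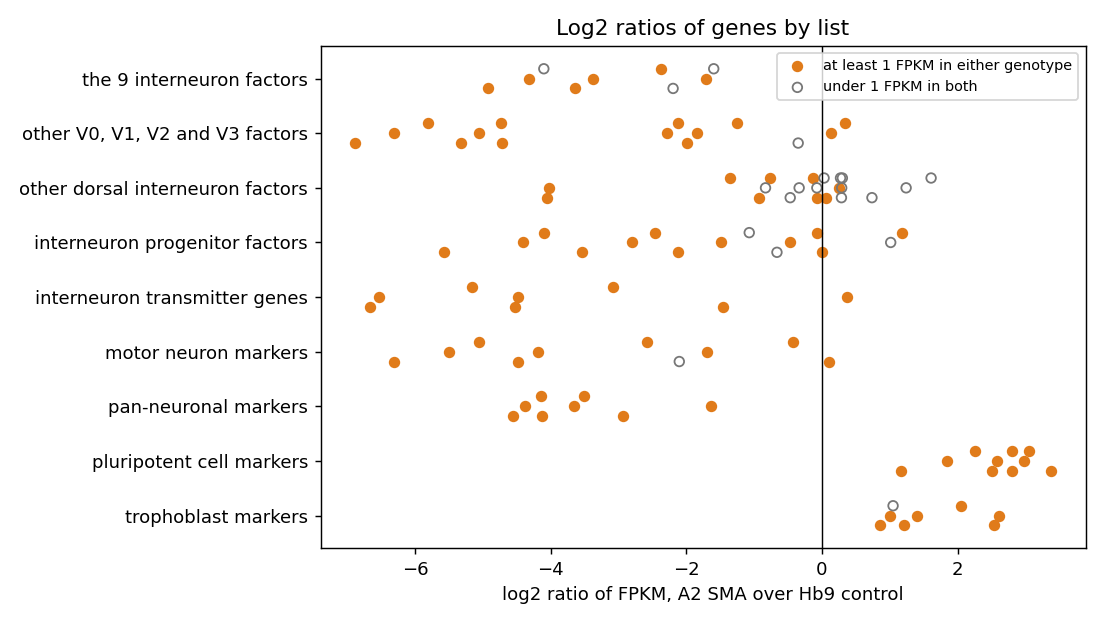
Log2 ratio of FPKM in A2 over Hb9 MNs for each gene of 9 lists, 1 point per gene, filled where the gene reached 1 FPKM in at least 1 genotype and open where it was under 1 FPKM in both. Genes at 0 FPKM in a genotype are not drawn. The 9 interneuron factors and most other ventral factors, transmitter genes and pan-neuronal markers lie left of 0, most dorsal factors lie around 0, and the pluripotent and trophoblast markers lie right of it.

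Progenitor factors of the interneuron domains were read next. Of 15, 12 passed 1 FPKM, with 8 lower by at least 2-fold, 1 higher (Msx2) and 3 within 2-fold, and a median log2 ratio of -2.29, or -1.48 over all 15. Nkx6-1, which sets the ventral domains from V2 to V3, was at 158 FPKM in Hb9 MNs and 7.46 FPKM in A2 MNs, and Nkx6-2 at 40.8 and 2.39 FPKM. Pax6, of most progenitor domains, was at 22.4 FPKM in Hb9 MNs and 21.4 FPKM in A2 MNs. Dbx1 (V0) and Prdm12 (V1), picked after their values were seen, had log2 ratios of -2.80 and -3.53. Foxn4, which starts the V2 programme upstream of Gata2 and Tal1, was also picked in this way and had a log2 ratio of -0.47.

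The V2a and V2b branches are set apart by Notch signalling between sister cells and by LIM cofactors. Of the 10 genes of this step found in the table, 7 were lower by at least 2-fold and 3 lay within 2-fold, with a median log2 ratio of -2.73. Lmo4 and Tal1 are in this list and in that of the ventral factors, as Lhx3 and Lhx4 are in the lists of ventral factors and MN markers, so these counts share genes. Notch1 had 139 FPKM in Hb9 MNs and 24.3 FPKM in A2 MNs, the ligand Dll1 had 91.2 and 8.65 FPKM, and Mfng, which modifies Notch, had 49.1 and 6.36 FPKM. Ldb1, the LIM domain binding cofactor, had 178 and 108 FPKM.

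Genes for the transmitters of interneurons were lower too. Of 8, 7 were lower by at least 2-fold and 1 lay within 2-fold, with a median log2 ratio of -4.51. Slc32a1, the vesicular transporter of GABA and glycine that Pax2-positive and V2b neurons use, was at 5.73 FPKM in Hb9 MNs and 0.256 FPKM in A2 MNs. Slc17a8, a vesicular glutamate transporter, was at 10.8 and 0.107 FPKM. Slc17a7 was the exception, at 6.03 and 7.81 FPKM.

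Markers of other cells moved with these differences. The transcript of Smn1, the targeted gene, was at 137 FPKM in Hb9 MNs and 5.26 FPKM in A2 MNs. Of MN markers, Mnx1 was at 41.2 FPKM in Hb9 MNs and 44.2 FPKM in A2 MNs, while 7 of the 9 above 1 FPKM were lower by at least 2-fold, among them Isl1 (108 and 5.95 FPKM). The entry of Foxp1, which also carries Eif4e3, lay within 2-fold (47.1 and 34.9 FPKM). Chat, which makes acetylcholine and was picked after its values were seen, was at 15.5 and 0.344 FPKM. Chat and Lhx3 were both under 1 FPKM in A2 MNs and passed the filter through Hb9 MNs only. All 8 pan-neuronal markers found were lower, with a median log2 ratio of -3.89 and summed levels of 1246 and 132 FPKM, and the neurofilament genes Nefm and Nefl were at 359 and 15.2 FPKM and at 297 and 17.0 FPKM. All 10 markers of pluripotent cells were higher, with a median of 2.69, summed levels of 284 and 1862 FPKM, and none at 0 in Hb9 MNs. Pou5f1 (Oct4), the core pluripotency factor, was at 98.3 FPKM in Hb9 MNs and 775 FPKM in A2 MNs, and Nanog at 41.4 and 236 FPKM. The part of cell composition in the ratios of the interneuron factors was not tested.

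Gata2 and Gata3 are also known from trophoblast and Gata2 from blood precursors, and markers of those tissues were read beside them. Of 10 trophoblast markers, 7 passed 1 FPKM and were above 0 in both genotypes, 5 of these were higher by at least 2-fold in A2 MNs and none was lower. The summed level of all 10 was 37.1 FPKM in Hb9 MNs and 132 FPKM in A2 MNs. Tfap2c was at 11.1 and 68.0 FPKM, Hand1 at 14.7 and 26.7 FPKM, Krt7 at 3.36 and 14.0 FPKM and Krt8 at 3.9996 and 9.26 FPKM. Most of the sum was in Tfap2c and Hand1 in both genotypes. The defining placental genes Prl3d1 and Tpbpa were at 0 in Hb9 MNs and at 0.0975 and 1.04 FPKM in A2 MNs. Of 11 blood and endothelial markers, 3 of the 8 above the filter were higher by at least 2-fold and 2 were lower, with Pecam1 at 21.8 and 68.7 FPKM, Lmo2 at 4.51 and 3.56 FPKM and Gata1 at 0.674 and 2.70 FPKM, and the summed level of the 11 was 42.3 and 83.6 FPKM, but 20.5 and 14.9 FPKM for the 10 without Pecam1, and 11.7 and 14.8 FPKM for the 9 without Pecam1 and Tal1. The direction of this sum thus turned with single genes. The 2 lower genes were Tal1, given above, and Kdr, at 1.36 and 0.513 FPKM. Hbb-bh1, an embryonic globin, was at 0 in Hb9 MNs and 0.746 FPKM in A2 MNs. Kdr and Hbb-bh1 were picked after their values were seen. Whether such cells contribute to the Gata2 and Gata3 levels was not tested.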

How the data were processed

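Deep sequencing measured RNA of FACS-purified MNs in 3 Hb9 control and 3 A2 SMA samples, grouped by the line that the labels name. Per the labels and the study's methods, the authors checked reads with FastQC 0.10.1, used CutAdapt for trimming and TopHat 2.04 for mapping against build NCBI m37, assembled transcripts with Cufflinks and compared genotypes with Cuffdiff. The deposited FPKM values are 1 per genotype, with the samples combined by the authors. The table also holds their fold changes, test statistics, p and q, which were not used. The table gives no read counts, so the reads behind each gene's value are unknown, and library totals were not used here.

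Ratios and counts were computed with Python 3.11.15, numpy 2.4.6 and pandas 2.3.3, and drawn with matplotlib 3.10.9. A symbol took its entry with the highest FPKM. List counts used genes that reached 1 FPKM in at least 1 genotype and lay above 0 FPKM in both, and a 2-fold threshold. The ratio and counting steps were run on Hb9 values with some symbols changed by known folds and no noise added. That run checks the arithmetic only, because it holds no spread over samples and no counting noise. Genes to name were the 9 factors, the 4 most abundant genes of each list, flanking genes and Smn1, with others where the text says so. Lbx1, Tlx3, Ptf1a, Atoh1, Msx2, Prl3d1, Tpbpa, Hhex, Ttr and Cdh16 lay outside the rule and were chosen after their values were seen. The sums without Pecam1 or Tal1 and the share of all symbols at 8-fold with 1 FPKM added were also chosen after seeing the data. Some genes that this rule names are not reported here. Cuffdiff marks its test as failed for the entries of Sox21, Lhx4, Lmx1b, Ldb1, Aatf, Hand1, Tfap2c, Gata4, Otx2, Col1a1 and Pdgfra, whose FPKM are given as deposited. The factors, lists and rules were chosen with earlier results of these data known. Sequences came from RefSeq (GRCm38.p6) and GENCODE M21, whose positions were not mixed with those of NCBI m37. Locus starts were raised by 1 to count from 1. Protein sequences were not used here.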

Additional observations from a re-analysis of the deposited data

How the results depend on the processing

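The alternatives were pseudocounts of 0.1 and 1 FPKM, no filter, a filter of 5 FPKM, scaling to the median gene or the upper quartile, summing entries, leaving out entries that Cuffdiff marks as failed, and a mean of both genotypes of at least 1 FPKM, which was chosen after seeing the data. Of these only the 2 scalings could turn the sign of a ratio, and all 9 factors were lower under both. With the filter of 5 FPKM, or on the mean, 5 of the 9 factors passed. The median log2 ratio of the 6 factors above 1 FPKM was -3.51. It was -3.06 and -2.12 with the pseudocounts of 0.1 and 1 FPKM, -3.38 with no filter, when all 9 factors count, -3.64 with the filter of 5 FPKM or on the mean, -3.22 relative to the median gene and -3.17 scaled to the upper quartile. With a pseudocount of 1 FPKM, Evx1, Evx2 and Vsx1 were no longer lower by at least 2-fold, and with a pseudocount of 0.1 FPKM Evx2 alone was not.

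The 8 progenitor factors lower by at least 2-fold became 5 with the filter of 5 FPKM or on the mean, the 7 transmitter genes became 3 with the filter of 5 FPKM, and the 30 lower genes of the 4 interneuron lists became 19, since fewer genes pass. Leaving out samples was not run, because the table holds no values of single samples. No paired analysis was possible because the columns carry 1 value per genotype and no replicate number. The lack of read counts in the table limits most the values under 1 FPKM, which hold for 7 of the 9 factors in A2 MNs.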

Other observations

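Tissues outside the spinal cord that use some of the 9 factors were read as values only. Of 12 primitive streak and mesoderm markers, where Evx1 and Lhx1 are also known, 6 passed 1 FPKM, with 3 lower and 1 higher by at least 2-fold. Hand1 was at 14.7 FPKM in Hb9 MNs and 26.7 FPKM in A2 MNs, Meox1 at 10.1 and 3.58 FPKM, Eomes at 1.35 and 4.44 FPKM and Tbx6 at 1.69 and 0.611 FPKM. Of 10 endoderm markers, 7 passed, 3 of them lower by at least 2-fold and none higher by as much. Foxa2 was at 55.9 and 18.2 FPKM, Gata4 at 16.9 and 10.7 FPKM, Foxa1 at 8.82 and 3.76 FPKM and Sox17 at 7.22 and 3.36 FPKM. By any amount, 5 of the 7 were lower and 2 higher. The 2 higher were Hhex, at 3.29 and 6.06 FPKM, and Ttr, at 0.841 and 1.19 FPKM. Ttr passed through A2 MNs only, which fixed its direction.

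Of 10 kidney precursor markers, where Pax2, Lhx1 and Gata3 are also known, 6 passed and 3 were lower by at least 2-fold. Ret was at 16.7 FPKM in Hb9 MNs and 3.31 FPKM in A2 MNs, Eya1 at 9.46 and 1.65 FPKM, Pax8 at 6.47 and 1.12 FPKM and Wt1 at 5.09 and 4.67 FPKM, and Cdh16 was at 0 in both. Of 10 genes of the midbrain-hindbrain boundary, where En1 and Pax2 also act, 9 passed, with 3 lower and 1 higher by at least 2-fold. En2, the paralog of En1, was picked after its values were seen and was at 1.85 and 1.47 FPKM, where En1 was at 1.70 and 0.164 FPKM. Otx2 was at 19.0 and 25.8 FPKM and Cnpy1 at 14.9 FPKM in both genotypes.

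Of 8 markers of feeder fibroblasts, 5 were lower and 1 was higher by at least 2-fold, with Col1a2 at 20.1 FPKM in Hb9 MNs and 8.93 FPKM in A2 MNs, Col1a1 at 18.9 and 9.41 FPKM, Col3a1 at 15.9 and 6.57 FPKM and Pdgfra at 5.20 and 3.22 FPKM.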
